A study of Mus musculus with 22 samples.

Results

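The genes examined here encode CTCF, cohesin and the proteins that load, release or act beside it at chromatin loops. The 10 members were named by symbol: Ctcf, the cohesin subunit genes Rad21, Smc1a, Smc3, Stag1 and Stag2, the loader gene Nipbl, the release factor gene Wapl, and Yy1 and Ldb1. All 10 were found among the 52535 symbols of each table, and all 10 passed the filter on low counts, which kept 16765 genes. RNA came from E14, a mouse embryonic stem cell line of blastocyst origin. The cells had lost LIF and the MEK and GSK3 inhibitors that hold them in the naive state, and had received 2 µM retinoic acid for 1 day. The genotypes were D-KO, E1-KO, E2-KO and WT, with 3 libraries each and the same treatment for all 4. E1 and E2 are enhancer elements that the study ties to the HoxB genes and to chromatin folding. D-KO is not spelled out in the labels and is taken to lack both. The labels give neither the positions of the elements nor the number of clones per genotype.

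Cohesin is a ring of SMC1A, SMC3 and RAD21 to which either STAG1 or STAG2 is bound. NIPBL loads the ring and lets it extrude a loop of DNA until it meets CTCF bound in the right orientation, and WAPL opens the ring and takes it off. YY1 and LDB1 hold enhancers and promoters together by dimerising, and loops of all these kinds shape how the Hox clusters are read during differentiation.

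Between 9101547 and 13007735 reads per library fell on genes. Levels are TMM-scaled counts-per-million values (CPM). Hoxb1, a gene that retinoic acid induces, averaged 0.528 CPM in D-KO, 0.291 in E1-KO and 0.838 in E2-KO, against 22.9 in WT. Hoxb4 averaged 0.201 CPM in D-KO, 1.43 in E1-KO and 3.92 in E2-KO, against 29.1 in WT. The WT libraries stood apart from each other. Over genes of at least 10 CPM, the highest library was a median of 1.11 times the lowest in D-KO, 1.10 times in E1-KO, 1.12 times in E2-KO and 1.51 times in WT. Mitochondrial transcripts took 2.53% to 2.69% of counts in D-KO, 1.36% to 1.48% in E1-KO and 1.63% to 1.81% in E2-KO, against 3.50%, 1.94% and 5.88% in WT replicates 1, 2 and 3. The summed level of 8 pluripotency markers, all detected, was 5009 to 5220 CPM in D-KO, 5989 to 6315 in E1-KO and 5731 to 6182 in E2-KO, against 2948 to 4819 in WT. The summed level of 8 primitive endoderm markers, all detected, was 210.1 to 217 CPM in D-KO, 129.5 to 141 in E1-KO and 198 to 209.7 in E2-KO, against 336 to 381 in WT. The 8 trophectoderm markers, all detected, summed to 107 to 115 CPM in D-KO, 194 to 208 in E1-KO and 189.5 to 203 in E2-KO, against 114 to 122 in WT. Fibroblast markers summed to 16.0 to 22.2 CPM in D-KO, 9.76 to 12.5 in E1-KO and 18.0 to 18.6 in E2-KO. In WT they summed to 29.4 to 36.5 CPM, above every KO library, and Lum was at 0 in all 12 libraries. Postn and Dcn were also at 0 in WT, where Col1a1 averaged 2.69 CPM, Col1a2 0.606 and Col3a1 0.0343. Most of the WT sum was therefore Pdgfra. Thy1 went the other way, at 2.04 CPM in WT against 3.82 in D-KO, 4.19 in E1-KO and 4.84 in E2-KO. The sum does not show these markers to be higher in WT as a set. The 6 early neural markers summed to 13.1 to 31.1 CPM. The part of these shifts in the values below was not tested. In such bulk RNA, fewer cells of a type and less RNA per cell cannot be told apart. The libraries of a genotype are biological replicates in the study's words, with no separate cultures named, so p-values cover only the spread between these libraries.

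The members lie on 7 chromosomes of GRCm38, with Rad21 and Nipbl both on chromosome 15, Smc3 and Ldb1 on 19, and Smc1a and Stag2 on X. None shares a chromosome with the HoxB cluster. RefSeq start windows of GRCm38.p6, 250 bases before to 50 after a gene's first base, were given for 7 members, all but Rad21, Stag2 and Nipbl. They were searched on both strands for ATGGCGG, the core of the sequence that YY1, itself a member, is known to bind. It stood in windows of 3 of the 7 members, Ctcf, Smc3 and Stag1, and in 4.05% of all 32851 windows (1332). The windows of Smc1a, Wapl, Yy1 and Ldb1 held none. The stretches are shown because they hold the only matches among the members. Among the members with windows, Smc1a and Wapl lack the core and also differ between KO genotypes below. Capitals mark the core, which in Ctcf and Smc3 is read from the opposite strand, as CCGCCAT. The Ctcf stretch is chr8:105636502-105636561, the Smc3 stretch chr19:53600360-53600419 and the Stag1 stretch chr9:100643223-100643282, each on the plus strand.
Ctcf: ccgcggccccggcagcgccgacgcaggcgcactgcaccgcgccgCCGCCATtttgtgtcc
Smc3: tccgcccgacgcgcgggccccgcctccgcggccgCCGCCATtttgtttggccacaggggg
Stag1: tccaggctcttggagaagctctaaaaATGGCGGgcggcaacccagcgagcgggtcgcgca
Counted from the first base of the RefSeq gene, the core began at base 9 in Ctcf, and in Smc3 it began 2 bases before the first base and ran over it. Both stretches share the 16 bases gccgCCGCCATtttgt around it. In Stag1 it began 199 bases before the RefSeq start. The GENCODE M21 gene start, used for the positions below, lies 30 bases after the RefSeq start in Ctcf and 2 bases after it in Smc3, and the RefSeq start of Stag1, base 100643448, lies well inside the GENCODE gene. The Ctcf core therefore lies before the GENCODE gene, and the Stag1 core inside it. A match of letters is a description of these windows, and binding was not measured.

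Per length of the longest coding transcript, Rad21 had the highest level of the 10 members in every genotype. It averaged 153 ± 5.55 CPM per kb in D-KO, 119.8 ± 3.83 in E1-KO and 116 ± 8.70 in E2-KO, against 153 ± 33.5 in WT (SD, n = 3 each). Smc3 came next in each genotype, with 83.4 ± 3.69 CPM per kb in D-KO, 55.3 ± 1.69 in E1-KO and 61.3 ± 6.48 in E2-KO, against 80.2 ± 25.7 in WT. Stag1, Stag2 and Nipbl were the lowest 3 in each KO genotype, at 14.8 to 19.2 CPM per kb, and in WT they lay at 25.4 to 28.9 with Yy1 among them at 28.9. In D-KO the order was Rad21, Smc3, Ctcf, Smc1a, Ldb1, Wapl, Yy1, Stag2, Nipbl and Stag1. Neighbours whose 3 libraries overlapped there were Ctcf and Smc1a, Smc1a and Ldb1, and Stag2 and Nipbl. E1-KO had the order Rad21, Smc3, Ctcf, Ldb1, Wapl, Smc1a, Yy1, Stag1, Nipbl and Stag2, with overlaps between Stag1 and Nipbl and between Nipbl and Stag2. E2-KO ran Rad21, Smc3, Ldb1, Ctcf, Smc1a, Wapl, Yy1, Stag1, Stag2 and Nipbl, with overlaps between Ldb1 and Ctcf, between Smc1a and Wapl, and among the last 3. In WT every pair of neighbours below Rad21 overlapped.

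The 3 subunits that close the ring had their highest KO levels in D-KO. Rad21 (chr15:51962240-51991747, minus strand), which encodes the kleisin that joins the SMC heads, stood at 581, 605 and 625 CPM in D-KO, 459, 489 and 473 in E1-KO and 432, 444 and 497 in E2-KO, against 759, 520.4 and 539.6 in WT. Every D-KO library lay above every E1-KO and E2-KO library, and the E1-KO and E2-KO libraries lay below all of WT. Here and below, the share of all genes whose genotypes separate in this way is not given. Such separation is therefore a description without a background. Against WT, Rad21 fell in E2-KO (log2 fold change -0.40 ± 0.13 SE, adjusted p = 0.030), while in E1-KO it missed the threshold of 0.05 at -0.36 ± 0.13 (adjusted p = 0.052). In D-KO the difference from WT was -0.01 ± 0.13 (adjusted p = 0.98).

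Smc3 (chr19:53600398-53645833, plus strand), an ATPase arm of the ring, stood at 385, 409 and 420.0 CPM in D-KO, 264, 263 and 278 in E1-KO and 272, 287 and 332 in E2-KO, against 520.9, 273 and 374 in WT. D-KO again lay above both single KO genotypes without overlap, while WT replicate 2 sat with E1-KO and WT replicate 1 above all others. Smc3 fell in E1-KO against WT (-0.54 ± 0.17, adjusted p = 0.029) and missed the threshold in E2-KO (-0.39 ± 0.17, adjusted p = 0.096) and in D-KO (0.06 ± 0.17, adjusted p = 0.85). With trends over GC content and length removed, the E1-KO value was -0.14 ± 0.11 and no longer passed. Smc1a (chrX:152016428-152062694, plus strand), the other ATPase arm, stood at 230.4, 242 and 268 CPM in D-KO, 158, 173 and 165 in E1-KO and 181, 191 and 209 in E2-KO, against 280.1, 162 and 138 in WT. Its KO genotypes did not overlap with each other, with D-KO highest and E1-KO lowest, and WT spanned all of them. None of its differences from WT passed the threshold, with log2 fold changes of 0.35 ± 0.19 in D-KO, -0.23 ± 0.19 in E1-KO and 0.00 ± 0.19 in E2-KO. With WT replicate 2 as the only WT library, D-KO differed from WT by 0.21 in Rad21, 0.57 in Smc3 and 0.61 in Smc1a, and E1-KO by -0.01 in Smc3. In that fit, here and below, the spread comes from the KO libraries. A call made or lost in it does not cover the spread between WT libraries.

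**Figure D1:**
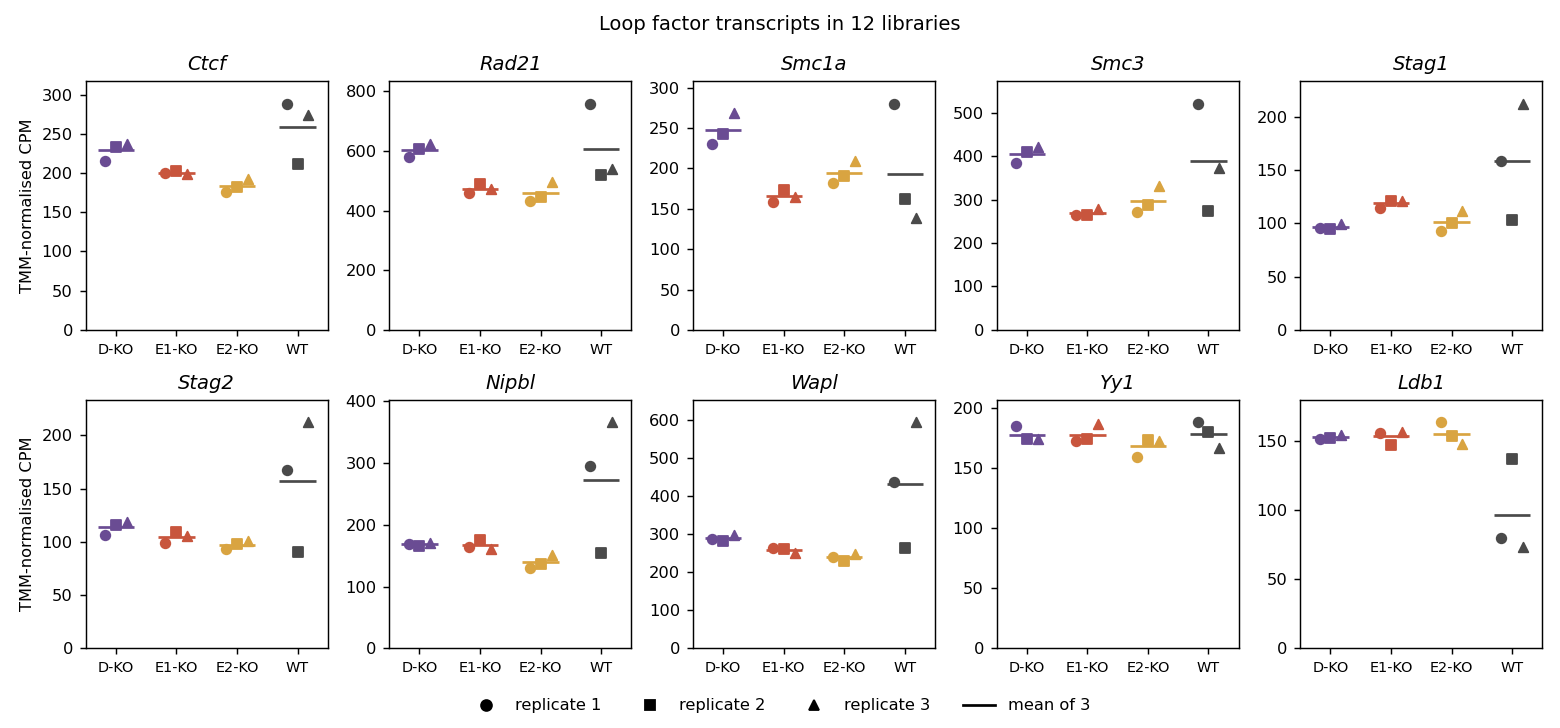
Levels of the 10 members in each library, in TMM-scaled counts-per-million values (CPM), by genotype. Symbols are replicates 1 to 3 and bars are means of 3. Rad21, Smc1a, Smc3, Ctcf and Wapl are higher in every D-KO library than in every E1-KO and E2-KO library. The share of all genes that separate in this way is not given. WT libraries are spread most widely, as in Wapl with 263 to 595 CPM.

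The subunits in the last position of the complex differed from each other between genotypes. Stag1 (chr9:100597798-100959375, plus strand), whose product is the form tied most to CTCF sites, stood at 95.7, 94.5 and 99.9 CPM in D-KO, 114, 121 and 121 in E1-KO and 93.1, 100.2 and 112 in E2-KO, against 159, 104 and 213 in WT. D-KO lay below E1-KO and below WT without overlap, and overlapped with E2-KO. Stag1 fell in D-KO (-0.71 ± 0.18, adjusted p = 0.014) and in E2-KO (-0.63 ± 0.18, adjusted p = 0.017) against WT, and missed the threshold in E1-KO (-0.41 ± 0.18, adjusted p = 0.097). After removal of the trends over GC content and length, it still fell in D-KO (-0.28 ± 0.08, adjusted p = 0.016), while the E2-KO value was 0.02 ± 0.08 (adjusted p = 0.87). Without WT replicates 1 and 3, the Stag1 values were -0.10 in D-KO, 0.21 in E1-KO and -0.02 in E2-KO.

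Stag2 (chrX:42149317-42277185, plus strand), the more mobile form, stood at 107, 116 and 119 CPM in D-KO, 98.8, 109 and 105 in E1-KO and 93.5, 98.3 and 101 in E2-KO, against 167.5, 90.9 and 212 in WT. WT replicate 2 was the lowest of all 12 libraries, and WT replicates 1 and 3 were the highest. Stag2 fell in E1-KO (-0.59 ± 0.21, adjusted p = 0.043) and E2-KO (-0.68 ± 0.21, adjusted p = 0.021) against WT and missed the threshold in D-KO (-0.46 ± 0.21, adjusted p = 0.13). Once the trends over GC content and length were removed, it passed in none of the 3, at -0.09 in D-KO, -0.10 in E1-KO and -0.12 in E2-KO. Set against WT replicate 2 alone, the signs turned, to 0.32 in D-KO, 0.21 in E1-KO and 0.10 in E2-KO.

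A ratio within a library is free of the scaling between libraries. Stag2 over Stag1, each per base of its longest coding transcript, was 1.12, 1.23 and 1.19 in D-KO, 0.868, 0.905 and 0.868 in E1-KO and 1.01, 0.983 and 0.8998 in E2-KO, against 1.06, 0.880 and 1.00 in WT. All D-KO libraries had a higher ratio than the other 9. The mean difference of D-KO was 0.30 from E1-KO, 0.22 from E2-KO and 0.20 from WT, each with p = 0.10 in an exact 2-sided permutation test, the smallest p that 3 against 3 libraries allow. E1-KO differed from WT by -0.10 (exact permutation p = 0.20). These are among 24 ratio tests, on 4 ratios in 6 comparisons, and after Benjamini-Hochberg adjustment none could pass. With the union of exons as the length, the mean ratio was 1.68 in D-KO, 1.25 in E1-KO and 1.37 in E2-KO, against 1.39 in WT. A change of length multiplies every library's ratio by the same factor, so it bears on the level and not on the order of genotypes. Both genes have a similar GC content, 40.2% for Stag2 and 39.4% for Stag1.

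**Figure D2:**
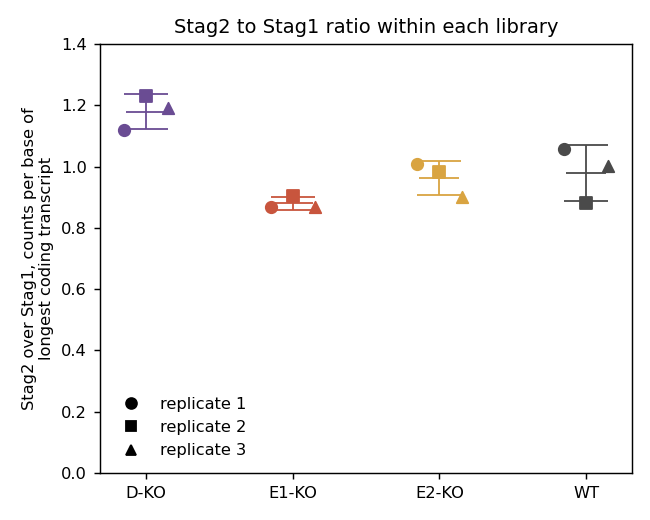
Ratio of Stag2 to Stag1 in each library, from counts per base of the longest coding transcript, by genotype. Symbols are replicates 1 to 3, and bars are the mean ± SD of 3. The D-KO libraries (1.12 to 1.23) are above those of E1-KO (0.868 to 0.905), E2-KO (0.8998 to 1.01) and WT (0.880 to 1.06).

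3 other ratios of partner genes were computed in the same way. Smc1a over Smc3 averaged 0.631 ± 0.0259 in D-KO, 0.637 ± 0.0367 in E1-KO and 0.675 ± 0.0226 in E2-KO, against 0.517 ± 0.121 in WT (SD, n = 3). Its lowest value, 0.382, was that of WT replicate 3. Rad21 over Smc3 averaged 1.83 ± 0.0194 in D-KO, 2.17 ± 0.101 in E1-KO and 1.89 ± 0.0576 in E2-KO, against 1.96 ± 0.323 in WT. E1-KO lay above D-KO and E2-KO without overlap (exact permutation p = 0.10 in both, the smallest possible). Wapl over Nipbl, release factor over loader, averaged 2.55 ± 0.0461 in D-KO, 2.30 ± 0.0832 in E1-KO and 2.56 ± 0.157 in E2-KO, against 2.38 ± 0.165 in WT. E1-KO had the lowest ratio of the KO genotypes, without overlap with the others (exact permutation p = 0.10).

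Nipbl (chr15:8290617-8444463, minus strand), the cohesin loader gene, stood at 169.7, 166 and 170.1 CPM in D-KO, 164, 175 and 161 in E1-KO and 131, 136 and 151 in E2-KO, against 296, 155 and 366 in WT. E2-KO lay below all other libraries, whereas D-KO and E1-KO lay above WT replicate 2 and below WT replicates 1 and 3. Nipbl fell against WT in all 3 KO genotypes, by 0.69 ± 0.21 in D-KO (adjusted p = 0.031), 0.71 ± 0.21 in E1-KO (adjusted p = 0.020) and 0.97 ± 0.21 in E2-KO (adjusted p = 0.0037) on the log2 scale. After removal of the trends over GC content and length, Nipbl was lower by a smaller amount in D-KO (-0.36, adjusted p = 0.043) and E2-KO (-0.50, adjusted p = 0.0068), and the E1-KO call was lost (-0.31, adjusted p = 0.067). With WT replicate 2 as the only WT library the difference was 0.12 in D-KO, 0.12 in E1-KO and -0.15 in E2-KO.

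Wapl (chr14:34673928-34747983, plus strand), the release factor gene, stood at 287, 283 and 298 CPM in D-KO, 263, 261 and 251 in E1-KO and 241, 229.6 and 249 in E2-KO, against 438, 263 and 595 in WT. E1-KO and E2-KO lay below all of WT, though E1-KO replicate 1 and WT replicate 2 were within 1 CPM, and D-KO overlapped with WT. Between KO genotypes, D-KO lay above E1-KO and E2-KO without overlap. Wapl fell in E1-KO (-0.74 ± 0.20, adjusted p = 0.011) and E2-KO (-0.85 ± 0.20, adjusted p = 0.0054) and missed the threshold in D-KO (-0.58 ± 0.20, adjusted p = 0.051). Once the trends over GC content and length were removed, the falls in E1-KO (-0.35 ± 0.12, adjusted p = 0.042) and E2-KO (-0.43 ± 0.12, adjusted p = 0.016) still passed. Without WT replicates 1 and 3, the differences were 0.14 in D-KO, -0.02 in E1-KO and -0.13 in E2-KO.

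Ctcf (chr8:105636568-105682922, plus strand), which encodes the zinc finger protein that stops the extruding ring, stood at 216, 233 and 238 CPM in D-KO, 200.0, 202 and 199 in E1-KO and 175, 182 and 192 in E2-KO, against 288, 212 and 274 in WT. E1-KO and E2-KO were below every WT library and below every D-KO library, and D-KO overlapped with WT. Ctcf fell in E1-KO (-0.37 ± 0.12, adjusted p = 0.025) and E2-KO (-0.50 ± 0.12, adjusted p = 0.0050), and differed by -0.17 ± 0.12 in D-KO (adjusted p = 0.30). After removal of the trends over GC content and length, both falls passed at -0.33 ± 0.09 and -0.47 ± 0.09. Set against WT replicate 2 alone, the E2-KO value was -0.21, and the E1-KO value was -0.07.

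Yy1 and Ldb1 encode the looping proteins outside the cohesin cycle. Yy1 (chr12:108792973-108820148, plus strand) stood at 185, 174 and 175 CPM in D-KO, 173, 174 and 187 in E1-KO and 159.7, 174 and 173 in E2-KO, against 188, 180.0 and 167 in WT. It had the narrowest range of the members in WT, and its libraries overlapped between each KO genotype and WT. Its log2 fold changes against WT, 0.00 in D-KO, 0.00 in E1-KO and -0.08 in E2-KO, each with an SE of 0.09, did not pass, nor did they under any of 23 alternatives.

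Ldb1 (chr19:46031570-46045214, minus strand) encodes an adaptor that dimerises to bridge enhancers and promoters. It was the only member whose 9 KO libraries all lay above all WT libraries, and the share of all genes that do so is not given. It stood at 151, 152 and 154 CPM in D-KO, 156, 147 and 157 in E1-KO and 164, 154 and 148 in E2-KO, against 79.5, 137 and 73.5 in WT. The KO libraries lay within 147 to 164 CPM, and WT replicate 2 lay nearest to them. Ldb1 rose by 0.65 ± 0.18 in D-KO (adjusted p = 0.016), 0.66 ± 0.18 in E1-KO (adjusted p = 0.011) and 0.68 ± 0.18 in E2-KO (adjusted p = 0.0097). Once the trends over GC content and length were removed, the values were 0.41 ± 0.08 in D-KO, 0.25 ± 0.08 in E1-KO and 0.21 ± 0.08 in E2-KO. The last missed the threshold (adjusted p = 0.055). With WT replicate 2 as the only WT library the values were 0.16 in D-KO, 0.17 in E1-KO and 0.18 in E2-KO. Exons of Ldb1 share 177 of their 4606 bases with Pprc1 on the opposite strand, and whether the counting used strand is not given in the sources used here. Pprc1 rose against WT in D-KO (0.37 ± 0.11, adjusted p = 0.026) and had 0.15 in E1-KO and 0.17 in E2-KO, which did not pass.

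In E1-KO 6 of 10 members passed the threshold against WT, 5 lower and 1 higher, where 34.2% of all tested genes passed, 18.5% lower and 15.7% higher. The median log2 fold change of the members was -0.39, and that of all tested genes -0.01. In E2-KO 7 of 10 passed, 6 lower and 1 higher, where 35.3% of all genes passed, 18.6% lower and 16.7% higher. The medians were -0.45 for the members and 0.00 for all genes. In D-KO 3 of 10 passed, Stag1 and Nipbl lower and Ldb1 higher, where 22.8% of all genes passed, 12.2% lower and 10.6% higher. The medians were -0.09 and -0.02. The 3 comparisons share their WT libraries, so the like values in them are not separate observations. Single libraries moved these counts. In E1-KO 2 members passed without E1-KO replicate 1, without E1-KO replicate 3 or without WT replicate 1, and 3 without E1-KO replicate 2. In E2-KO 4 passed without E2-KO replicate 1 or replicate 2. In D-KO 6 passed without WT replicate 2, 1 without D-KO replicate 1 or replicate 3, and 0 without D-KO replicate 2. The genes called over all those tested moved as well with 1 library left out. They ran from 2413 to 7006 in D-KO, 3965 to 8753 in E1-KO and 3969 to 8887 in E2-KO.

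These counts rest on the WT libraries, which differ along GC content. Between WT replicate 3 and WT replicate 2, genes with 40% to 43% GC in their exons had a median log2 difference of 0.43, and genes with 56% to 60% GC one of -0.56. WT replicate 1 differed from replicate 2 by 0.44 and -0.50 in the same classes. The members followed that order at the ends of the range. Between WT replicates 3 and 2, Nipbl, Stag2, Wapl and Stag1, with 39.4% to 42.4% GC, differed by 1.03 to 1.24, and Ldb1, with 58.0% GC, by -0.89. These sizes were larger than the medians of their classes, 0.55 at 35% to 40% GC, 0.43 at 40% to 43% and -0.56 at 56% to 60%. Rad21, Smc1a, Yy1 and Ctcf, between 46.55% and 50.2% GC, differed by -0.23 to 0.37, and Smc3, with 41.5% GC, by 0.45. Between WT replicates 1 and 2 the members followed the classes less closely. Smc1a differed by 0.79, Rad21 by 0.54 and Ctcf by 0.44, where genes with 46% to 49% GC had a median of 0.10. Smc3 differed by 0.93, Nipbl, Stag2, Wapl and Stag1 by 0.61 to 0.93, Yy1 by 0.07 and Ldb1 by -0.78. With the trends removed, 3 of 10 members passed in D-KO (26.2% of all genes), 3 in E1-KO (31.6%) and 4 in E2-KO (31.3%). With only the 6 libraries of the genotypes compared, 0 passed in D-KO (9.09% of all genes) and in E1-KO (15.9%), and Nipbl alone in E2-KO (16.0%). In that edgeR fit 3 members had an unadjusted p under 0.05 in D-KO, 4 in E1-KO and 6 in E2-KO. DESeq2 on all 12 libraries called 4 members in D-KO (24.9% of all genes), 7 in E1-KO (36.0%) and 7 in E2-KO (37.1%).

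**Figure D3:**
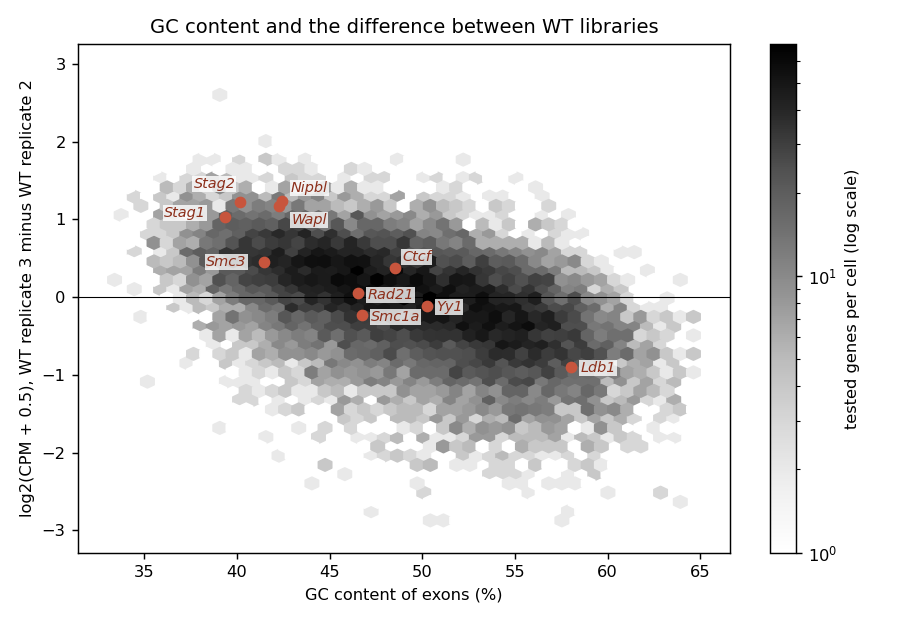
Difference between WT replicate 3 and WT replicate 2, as log2(CPM + 0.5), over the GC content of each gene's exons. Grey cells count tested genes on a log scale, and red points are the members. Nipbl, Stag2, Wapl and Stag1 lie near 1 at low GC, and Ldb1 at -0.89 with 58.0% GC.

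**Figure D4:**
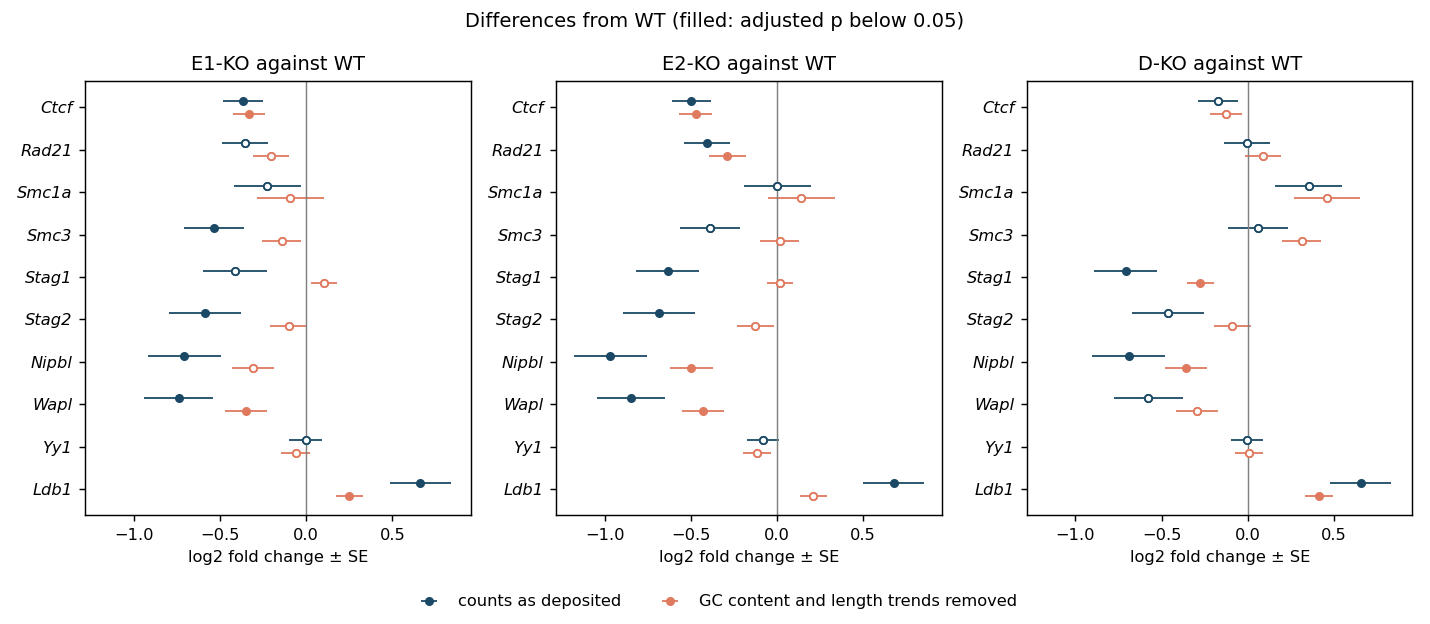
Log2 fold changes ± SE of the members in each KO genotype against WT, from the counts as deposited (blue) and with trends over GC content and length removed (orange). Filled points passed an adjusted p of 0.05. Ctcf in E1-KO and E2-KO and Ldb1 in D-KO are among the values that passed both ways, and Stag2 passed only before the trends were removed.

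The KO genotypes can be compared without WT. In the fit to all 12 libraries, which carries the spread of WT, Smc3 alone of the members was higher in D-KO than in E1-KO (0.59 ± 0.17, adjusted p = 0.034), where 15.9% of all genes passed, 8.43% higher. None passed in D-KO against E2-KO (4.48% of all genes) or in E1-KO against E2-KO (0.596%, with 0.322% higher and 0.274% lower). By that edgeR test 3 members had an unadjusted p under 0.05 in D-KO against E2-KO and 0 in E1-KO against E2-KO, and DESeq2 called 0 in both. In D-KO against E1-KO, no member passed when any D-KO or E1-KO library or E2-KO replicate 2 was left out, and 3, 4 and 3 passed without WT replicate 1, 2 or 3. In D-KO against E2-KO, 3, 4 and 2 passed without WT replicate 1, 2 or 3. With 1 library left out, 1174 to 4934 genes were called in D-KO against E1-KO and 227 to 2875 in D-KO against E2-KO. Median dispersions, estimated per gene, were 0.00615 among KO libraries and 0.0935 among WT libraries.

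In the fit to the 9 KO libraries alone, 6 of 10 members passed in D-KO against E1-KO, 5 higher and 1 lower, where 48.5% of the 16287 genes tested passed, 23.5% higher and 25.0% lower. In D-KO against E2-KO 7 of 10 passed, all higher, where 37.6% of all genes passed and 18.8% were higher. In E1-KO against E2-KO 5 of 10 passed, where 21.3% of all genes passed, 10.2% higher and 11.1% lower. The 3 ring subunits and Ctcf were higher in D-KO in both comparisons, as was Wapl, whose values are given below. Rad21 was higher by 0.34 ± 0.04 than in E1-KO (adjusted p = 1.5e-09) and by 0.40 ± 0.04 than in E2-KO (adjusted p = 4.3e-11). Smc3 was higher by 0.58 ± 0.06 (adjusted p = 6.1e-08) and 0.45 ± 0.06 (adjusted p = 3.4e-06), and Smc1a by 0.57 ± 0.05 (adjusted p = 5.1e-11) and 0.35 ± 0.05 (adjusted p = 1.6e-06). Ctcf was higher by 0.18 ± 0.04 (adjusted p = 6.1e-04) and 0.32 ± 0.04 (adjusted p = 3.0e-08). With trends over GC content and length removed as well, an alternative chosen after the data were seen, the 3 ring subunits and Ctcf passed in both comparisons. Their values were then 0.20 to 0.55 against E1-KO and 0.30 to 0.37 against E2-KO. In that fit 6 members passed in D-KO against E1-KO (45.9% of all genes), 9 in D-KO against E2-KO (33.6%) and 4 in E1-KO against E2-KO (20.3%).

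Apart from Wapl, the other members split the KO genotypes in other ways. Stag1 was lower in D-KO than in E1-KO (-0.31 ± 0.06, adjusted p = 6.8e-06) and differed by -0.08 ± 0.06 from E2-KO (adjusted p = 0.31). With the trends removed it was lower than both, at -0.38 and -0.29. Nipbl was higher in D-KO (0.27 ± 0.05, adjusted p = 7.7e-06) and in E1-KO (0.27 ± 0.05, adjusted p = 2.1e-05) than in E2-KO, while D-KO and E1-KO differed by 0.00 ± 0.05. Wapl was higher in D-KO than in E1-KO (0.15 ± 0.04, adjusted p = 0.0017) and E2-KO (0.27 ± 0.04, adjusted p = 2.5e-07), and the difference from E1-KO was 0.05 and no longer passed with the trends removed. Stag2 was higher in D-KO than in E2-KO at 0.22 ± 0.06, and with the trends removed at 0.04 did not pass. In E1-KO against E2-KO, Ctcf was higher (0.14 ± 0.04) and Smc1a lower (-0.22 ± 0.05), and both also passed with the trends removed, as did Nipbl (0.19). Stag1 (0.23 ± 0.06, adjusted p = 0.0014) and Wapl (0.12 ± 0.04, adjusted p = 0.030) were higher in E1-KO too, but with the trends removed neither passed, at 0.09 (adjusted p = 0.21) and 0.08 (adjusted p = 0.12). Smc3 was then lower in E1-KO (-0.15 ± 0.04, adjusted p = 0.0096). Yy1 and Ldb1 passed in none of the 3 comparisons. With the trends removed Ldb1 was higher in D-KO than in E1-KO (0.16 ± 0.04) and E2-KO (0.20 ± 0.04), and Yy1 was higher in D-KO than in E2-KO (0.13 ± 0.04).

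**Figure D5:**
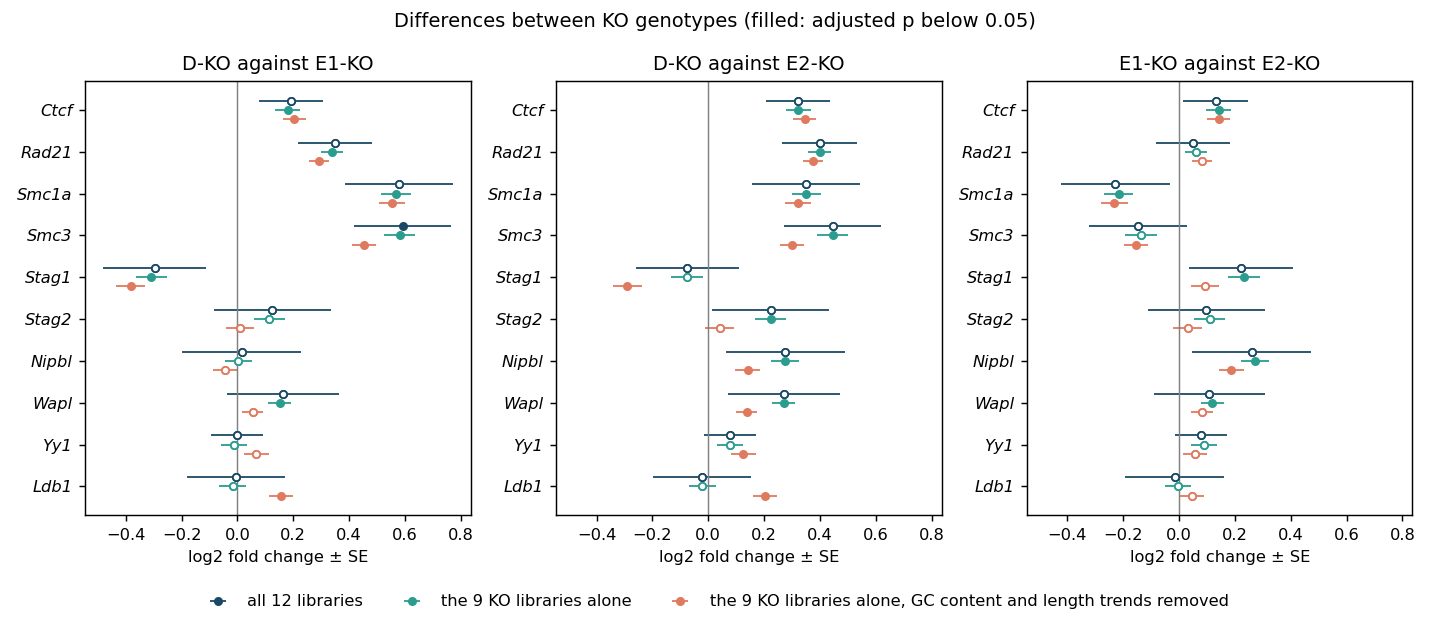
Log2 fold changes ± SE of the members between KO genotypes, from all 12 libraries (blue), the 9 KO libraries alone (green) and those 9 with GC content and length trends removed (orange). Filled points passed an adjusted p of 0.05. Ctcf, Rad21, Smc1a, Smc3, Wapl and Stag2 lie right of 0 in D-KO against E1-KO and against E2-KO in all 3 fits. Wapl (0.05) and Stag2 (0.01) lie close to 0 against E1-KO with the trends removed. The SE is smaller without WT.

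Whether the change in D-KO differed from the sum of the changes in E1-KO and E2-KO was tested as an interaction. It passed for 7 of 10 members, 6 positive and 1 negative, where 35.2% of all genes passed, 18.1% positive and 17.1% negative. It was 0.69 ± 0.16 for Ctcf (adjusted p = 0.0057), 0.75 ± 0.19 for Rad21 (adjusted p = 0.0076), 0.98 ± 0.25 for Smc3 (adjusted p = 0.0079) and 1.01 ± 0.28 for Wapl (adjusted p = 0.014). A positive value means a higher level in D-KO than the single deletions add up to. A shift of equal size in all 3 KO genotypes against WT also gives a value of that size, with its sign turned. The test cannot tell such a shift from a joint effect of E1 and E2. Ldb1 rose by 0.65 to 0.68 in all 3, and D-KO differed by -0.01 from E1-KO and by -0.02 from E2-KO. For Ctcf, Rad21 and Wapl it also passed in each of 22 alternatives, and for Smc3 in 21, but at sizes from 0.39 to 0.81 for Ctcf, 0.52 to 0.85 for Rad21, 0.28 to 1.27 for Wapl and 0.44 to 1.181 for Smc3. Nipbl had 0.98 ± 0.30 (adjusted p = 0.022), Stag2 0.81 ± 0.30 (adjusted p = 0.046) and Ldb1 -0.68 ± 0.25 (adjusted p = 0.046). Nipbl passed in 15 of the 22 alternatives, Stag2 in 6 and Ldb1 in 8. The count of 7 became 4 without WT replicate 1, E1-KO replicate 3, E2-KO replicate 1 or E2-KO replicate 2. With 1 library left out, the genes called in the interaction ran from 4621 to 8673. After removal of the trends over GC content and length, Ctcf had 0.67, Rad21 0.58, Wapl 0.48 (adjusted p = 0.046) and Smc3 0.44 (adjusted p = 0.049), while Nipbl at 0.45 (adjusted p = 0.060), Stag2 at 0.14 and Ldb1 at -0.05 no longer passed. Of the members 6 passed without WT replicates 1 and 3, Ctcf, Rad21, Smc1a, Smc3 and Wapl positive and Stag1 negative, where 38.7% of all genes passed. With all libraries Smc1a had 0.58 ± 0.27 (adjusted p = 0.12), Stag1 0.34 ± 0.26 (adjusted p = 0.33) and Yy1 0.08 ± 0.13 (adjusted p = 0.66). Stag1 turned to -0.40 (adjusted p = 0.012) after removal of the trends, past the threshold, and to -0.29 with WT replicate 2 alone.

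The wider pathway was read from 53 other genes in 6 lists, of which 47 passed the filter on low counts. Rad21l, Ldb2, Lmo1, Lmo2, Lmo3 and Yy2 did not, and Yy2 was listed at 0 in every library. Of the 47, 4 rose and 8 fell in D-KO against WT, 4 rose and 15 fell in E1-KO, and 7 rose and 20 fell in E2-KO. Of all genes, 10.6% rose and 12.2% fell in D-KO, 15.7% and 18.5% in E1-KO, and 16.7% and 18.6% in E2-KO. Once the trends over GC content and length were removed, 4 of the 47 were higher and 7 lower in D-KO (26.2% of all genes called), 8 and 9 in E1-KO (31.6%), and 6 and 7 in E2-KO (31.3%). Set against WT replicate 2 alone, 49 were tested, with 16 higher and 13 lower in D-KO (34.8% of all genes called), 6 and 9 in E1-KO (30.8%), and 6 and 10 in E2-KO (30.1%). In the fit to all 12 libraries, 2 were higher and 3 lower in D-KO than in E1-KO, where 8.43% of all genes were higher and 7.52% lower. Against E2-KO 0 were higher and 2 lower in D-KO, where 1.84% of all genes were higher and 2.64% lower. None passed in E1-KO against E2-KO, where 5 had an unadjusted p under 0.05 in edgeR and DESeq2 called 0.

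Cohesin genes known from meiosis moved in both directions. Stag3, the meiotic STAG subunit, stood at 100.0, 93.1 and 91.7 CPM in D-KO, 155, 166 and 162 in E1-KO and 128, 124 and 135 in E2-KO, against 67.0, 58.4 and 69.0 in WT. Its 4 genotypes did not overlap, with E1-KO highest and WT lowest. It rose by 0.55 ± 0.10 in D-KO (adjusted p = 0.0013), 1.31 ± 0.10 in E1-KO (adjusted p = 6.3e-07) and 0.99 ± 0.10 in E2-KO (adjusted p = 7.7e-06), and it was lower in D-KO than in E1-KO (-0.76 ± 0.10) and E2-KO (-0.44 ± 0.10). Per length it averaged 22.5 CPM per kb in D-KO, 38.3 in E1-KO and 30.6 in E2-KO, against 15.4 in WT. In each KO genotype that level was above those of Stag1 and Stag2 without overlap, and in WT it was below their means. Rec8, the meiotic kleisin, fell in all 3 KO genotypes, by 1.17 ± 0.21 in D-KO, 0.79 ± 0.21 in E1-KO and 0.58 ± 0.20 in E2-KO. Smc1b, the meiotic counterpart of Smc1a, rose in D-KO (1.13 ± 0.30, adjusted p = 0.016), at a mean of 34.3 CPM against 15.8 in WT. It had 0.38 ± 0.30 in E1-KO and 0.81 ± 0.30 in E2-KO (adjusted p = 0.052), which did not pass. With trends over GC content and length removed it was higher in all 3, at 1.44 in D-KO, 0.88 in E1-KO and 1.29 in E2-KO. Set against WT replicate 2 alone, Smc1b had 2.13 in D-KO, 1.39 in E1-KO and 1.81 in E2-KO.

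Of 12 cohesin regulators, 0 rose and 1 fell in D-KO, 1 rose and 5 fell in E1-KO, and 2 rose and 6 fell in E2-KO. Ddx11, a helicase gene of cohesion, fell in all 3, by 0.51 ± 0.09 in D-KO, 0.35 ± 0.09 in E1-KO and 0.37 ± 0.09 in E2-KO, without overlap with WT. Esco2, which encodes the acetyltransferase that locks SMC3 during replication, fell in E1-KO (-0.85 ± 0.17) and E2-KO (-0.81 ± 0.17), as did the centromeric protector gene Sgo2a (-0.68 ± 0.19 and -0.78 ± 0.19) and Pds5b (-0.51 ± 0.18 and -0.75 ± 0.18), whose product binds cohesin beside WAPL. In Sgo2a WT replicate 2 lay with E1-KO, at 92.5 to 100.7 CPM in E1-KO against 182, 95.4 and 186 in WT replicates 1, 2 and 3. Pds5b had 94.6 to 101 CPM in E1-KO against 139.5, 90.4 and 186 in those WT libraries. With WT replicate 2 as the only WT library Sgo2a and Pds5b were called in neither genotype, and in D-KO both were higher (0.34 and 0.28). With the trends removed Pds5b was called in neither, Sgo2a in E2-KO only (-0.26), and Esco2 in E1-KO only (-0.29). Cdca5, encoding the WAPL antagonist sororin, rose in E1-KO (0.49 ± 0.13) and E2-KO (0.40 ± 0.13) and had 0.38 ± 0.13 in D-KO, which did not pass. Neither rise of Cdca5 passed with WT replicate 2 alone, and after removal of the trends the one in E2-KO did not.

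Of 14 condensin and SMC5/6 genes, 1 rose and 3 fell in D-KO, 0 rose and 5 fell in E1-KO, and 2 rose and 8 fell in E2-KO. The condensin subunit genes Ncapd2 and Ncapg fell in all 3, Ncapd2 by 0.48 ± 0.09 in D-KO, 0.31 ± 0.09 in E1-KO and 0.26 ± 0.09 in E2-KO. Ncapg fell by 0.57 ± 0.17 in D-KO, 0.70 ± 0.17 in E1-KO and 0.60 ± 0.17 in E2-KO. Smc2 and Smc4, the ATPases of condensin, fell in E1-KO (-0.66 ± 0.17 and -0.72 ± 0.19) and E2-KO (-0.75 ± 0.17 and -0.56 ± 0.19). Ncapg2 fell in E2-KO (-0.68 ± 0.15), and the SMC5/6 ligase gene Nsmce2 rose in D-KO (0.62 ± 0.19) and E2-KO (0.54 ± 0.19). The calls of Ncapd2 and Nsmce2 held after removal of the trends and with WT replicate 2 alone. Those of Ncapg and Smc4 were lost in both, as was that of Smc2 in E1-KO, and that of Ncapg2 was lost after removal of the trends. Smc4 was higher in D-KO (0.41) with WT replicate 2 alone.

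Among 7 genes of other boundary and loop anchor proteins, none passed in D-KO, 1 rose and 2 fell in E1-KO, and 3 fell in E2-KO. In D-KO against WT, 1 of these 7 had an unadjusted p under 0.05 in edgeR, and DESeq2 called 1. Top2b, the topoisomerase found at loop anchors, fell in E1-KO (-1.01 ± 0.17) and E2-KO (-0.82 ± 0.17) and was higher in D-KO than in E1-KO (0.53 ± 0.17, adjusted p = 0.048). After removal of the trends its fall in E2-KO was lost (-0.16). Top2a, its counterpart in dividing cells, fell in E1-KO (-0.51 ± 0.15) and E2-KO (-0.49 ± 0.15), and both calls were lost after removal of the trends and with WT replicate 2 alone. Adnp, encoding a chromatin protein that competes with CTCF, rose in E1-KO (1.67 ± 0.44, adjusted p = 0.010) at low levels, with 15.7, 12.6 and 14.7 CPM in E1-KO against 1.85, 8.60 and 2.50 in WT. Ctcfl, the germline relative of Ctcf, fell in E2-KO (-0.89 ± 0.26), at a mean of 4.79 CPM against 8.90 in WT.

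Of the 5 tested partners of LDB1, 0 rose and 2 fell in D-KO, 0 rose and 1 fell in E1-KO, and 1 rose and 2 fell in E2-KO. Lmo4, which encodes a LIM-only partner, fell in D-KO against WT (-0.58 ± 0.11, adjusted p = 0.0017) and was lower there than in E1-KO (-0.40 ± 0.11) and E2-KO (-0.51 ± 0.11). Rlim, the ubiquitin ligase gene for LDB1, fell by 0.36 ± 0.12 in D-KO and in E2-KO. Ssbp2, an LDB1 stabiliser, fell in E1-KO (-1.21 ± 0.21) and E2-KO (-0.92 ± 0.21), and Ssbp4 rose in E2-KO (0.85 ± 0.27). The calls of Rlim and Ssbp4 were lost after removal of the trends and with WT replicate 2 alone, and that of Ssbp2 in E2-KO was lost after removal of the trends. Of the 6 tested relatives and partners of YY1, 1 rose and 1 fell in D-KO, 1 rose and 1 fell in E1-KO, and 1 rose in E2-KO. Zfp42, a YY1 relative that marks naive stem cells, rose in all 3, by 0.28 ± 0.09 in D-KO, 0.70 ± 0.09 in E1-KO and 0.48 ± 0.09 in E2-KO. Yaf2, whose product binds YY1, fell in D-KO (-0.87 ± 0.20) and E1-KO (-0.82 ± 0.20).

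The genes whose log2 CPM followed that of Ctcf most closely over the 12 libraries, among 6032 genes, were Bdp1, Mllt10, Zfp207, Baz1b and Smarcc1, with Pearson's r of 0.98 for each. For Nipbl they were Suco, Slf2, Arih1, Pds5a and Mynn, with r of 0.98 to 0.99. Among the members, Nipbl and Wapl had r = 0.98, and Nipbl and Ldb1 had r = -0.96 over all 12 libraries. Over the 9 KO libraries these were 0.79 and -0.56, and the closest pair was Smc1a and Smc3 at 0.97. The points share libraries, genotypes and the trend over GC content, so these values describe the libraries and were not tested.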

How the data were processed

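Counts of reads per gene were deposited by the authors, 1 table for each of the 12 RNA-seq libraries, with 52535 symbols each. Per the submitters' processing notes the build was mm10 and the tools include HISAT2 2.1.0, HTSeq 0.9.1 and DESeq2 1.18.1, and per the labels' protocols RNA was extracted with Trizol. The sources used here name neither the gene annotation nor the strand setting. Whether reads of a gene and of an antisense neighbour were told apart is therefore not known. No-feature reads, 1.11 to 1.20 times the counted ones, and HTSeq's other summary lines were left out of library sizes and tests. The 4C and ChIP samples were not analysed here.

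Differences were tested with edgeR 4.0.16 (R 4.3.3): filterByExpr kept 16765 genes, TMM set the scaling, and a robust quasi-likelihood model was fitted to all 12 libraries with 1 mean per genotype. Genes were called at a Benjamini-Hochberg adjusted p below 0.05 over all genes tested. Adjusted p-values are edgeR's unless DESeq2 1.42.0 or limma 3.58.1 is named. The step was tested on simulated data. The common dispersion was 0.0265, and WT libraries spread more, and KO libraries less, than the shared estimate. Positions, exon lengths and GC content come from GENCODE M21 on GRCm38, and 97.2% of tested genes had values. Their trends were removed per library by lowess offsets (span 0.3). Alternatives were DESeq2, limma-voom with a weight per genotype (TMM not in effect), other scalings and filters, fewer libraries, the replicate number as a block, and each library left out.

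The members and lists were chosen with earlier results of these data known. The text names all members, from each list and comparison with WT up to 3 called genes with the smallest adjusted p, and the 5 genes most like Ctcf and Nipbl. Pprc1 was named after its overlap with Ldb1 was seen. Same-numbered libraries did not deviate together, as given in the closing section.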

Additional observations from a re-analysis of the deposited data

Results flagged for a closer look

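For 7 members the D-KO change differed from the sum of the E1-KO and E2-KO changes in the edgeR test of that difference. It was 0.69 for Ctcf, 0.75 for Rad21, 0.98 for Smc3, 0.81 for Stag2, 0.98 for Nipbl, 1.01 for Wapl and -0.68 for Ldb1 on the log2 scale, and 35.2% of all tested genes passed the same test. A shift that all KO genotypes share against WT, as in Ldb1, enters this value with its sign turned. The test cannot tell it from a joint effect of E1 and E2. With WT replicate 2 as the only WT library, the values of Ctcf, Rad21, Smc3 and Wapl were 0.39, 0.52, 0.46 and 0.28. After removal of the trends over GC content and length, the same 4 passed at 0.67, 0.58, 0.44 and 0.48, and the values were 0.14 for Stag2, 0.45 for Nipbl and -0.05 for Ldb1.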

How the results depend on the processing

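Of 1660 member values under alternatives, 1379 kept their side of the threshold, 134 no longer passed and 133 newly passed. A further 14 turned sign where the main or the alternative value passed. The 1379 include 90 of small size that changed sign without passing either way, so not all of them kept their direction.

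Library totals as the only scaling moved the median of all genes by 0.11 in E1-KO against WT and -0.17 in the interaction, and limma-voom moved it by 0.10 in E2-KO, 0.13 in E1-KO and -0.20 in the interaction. The limma-voom medians, 0.12 in E1-KO and 0.10 in E2-KO, lay near those of library totals, 0.097 and 0.080. TMM scaling was not in effect in the limma-voom fit, so its values differ from the main ones in scaling as well as in method. With the 6 libraries compared alone, 1438 genes and 0 members were called in D-KO against WT, 2552 genes and 0 members in E1-KO, 2535 genes and 1 member in E2-KO, 8025 and 7 in D-KO against E1-KO, 5872 and 7 in D-KO against E2-KO, and 3377 and 5 in E1-KO against E2-KO. With the 9 KO libraries alone the last 3 comparisons gave 7898, 6124 and 3467 genes and 6, 7 and 5 members, and with trends removed as well 7480, 5468 and 3300 genes and 6, 9 and 4 members. There Ldb1 turned to 0.16 in D-KO against E1-KO and 0.20 against E2-KO. limma-voom called 1880 genes in D-KO against WT, 3065 and 3 members in E1-KO, 3192 genes in E2-KO, 8225 and 4 in D-KO against E1-KO, 5843 and 6 in D-KO against E2-KO, and 2845 and 3 in E1-KO against E2-KO. DESeq2 called 2 members in D-KO against E1-KO (18.7% of all genes), 1213 genes in D-KO against E2-KO and 250 in E1-KO against E2-KO. Library totals gave 3 members in E1-KO against WT and 0 in D-KO against E1-KO. No filter on low counts gave 6 members in D-KO against WT, 2 in D-KO against E1-KO, 1472 genes and 2 members in D-KO against E2-KO, and 415 genes in E1-KO against E2-KO. Where library totals or no filter have members listed without genes, the share of all genes is not given here.

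GC content and length trends removed left 3 members in E1-KO (31.6% of all genes) and 4 in E2-KO (31.3%) against WT. Stag1 had 0.018 in E2-KO and -0.40 in the interaction. In that fit 2 members passed in D-KO against E1-KO (21.7% of all genes). It called 1414 genes and 3 members in D-KO against E2-KO, and 260 genes in E1-KO against E2-KO.

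The replicate block called 3 members in D-KO, 5 in E1-KO and 7 in E2-KO against WT, and 6 in the interaction. The shares of all genes called with the block in these comparisons are not given here, so the counts have no background beside them. The 18 correlations of same-numbered libraries were -0.08 to 0.08, none over 0.1, so the numbers do not pair the libraries. With trends removed too, the block gave 3 members in E1-KO and 3 in E2-KO, Stag1 at 0.019 in E2-KO, 2 in D-KO against E1-KO, 1171 genes and 1 member in D-KO against E2-KO, 200 genes in E1-KO against E2-KO, 4 members in the interaction and Stag1 at -0.40 there. Where members are listed without genes, the share of all genes is again not given, so those counts cannot be read against a background.

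Leaving out 1 library gave 2413 to 7006 genes and 0 to 6 members in D-KO against WT, 3965 to 8753 and 2 to 8 in E1-KO, and 3969 to 8887 and 4 to 8 in E2-KO. It gave 1174 to 4934 genes and 0 to 4 members in D-KO against E1-KO, 227 to 2875 and 0 to 4 in D-KO against E2-KO, 16 to 722 genes in E1-KO against E2-KO, and 4621 to 8673 genes and 4 to 8 members in the interaction.

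With WT replicate 2 as the only WT library, 3 members passed in E1-KO, 4 in E2-KO, 6 in D-KO against E1-KO, 7 in D-KO against E2-KO and 5 in E1-KO against E2-KO. Genes called were 6238 in D-KO against WT, 8030 in D-KO against E1-KO, 6158 in D-KO against E2-KO and 3457 in E1-KO against E2-KO. Stag1 turned to 0.21 in E1-KO and -0.29 in the interaction, Stag2 to 0.32 in D-KO, 0.21 in E1-KO and 0.10 in E2-KO, Nipbl to 0.12 in E1-KO and D-KO, and Rad21 to 0.21 in D-KO. In that fit the lone WT library is assumed to vary like the KO libraries. Stag2 over Stag1 with the union of exons as length was 1.68 in D-KO, 1.25 in E1-KO and 1.37 in E2-KO, against 1.39 in WT. Fewer samples or a spread that includes WT are part of how these fits differ, and other causes were not tested.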
